A study of Homo sapiens with 2 samples.

Results

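The mitosis genes described here were 40 protein-coding genes given by their symbols, among them the mitotic cyclins, the Aurora and Polo kinases, the spindle checkpoint, the kinetochore and the proteins of cell division. Each of the 40 symbols matched exactly 1 of the 57820 gene identifiers in the count table. The rule that selects them is a list of symbols with no threshold on a value, although the list was drawn up with earlier results of these data known. All 40 were expressed in both libraries. Their median level was 54.2 ± 9.08 TPM (a level per gene length: reads divided by the summed exon length of the gene and scaled to the same total in every library; mean ± SD of 2 libraries). The single genes ran from 9.78 TPM for CDC25B to 209 TPM for TOP2A.

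The cells were T47D, an established line of human luminal breast cancer from a metastatic site. They carried ESR1 Y537S, an amino acid exchange in the hormone-binding part of the estrogen receptor, known from endocrine-resistant tumours for activity in the absence of estrogen; the labels do not say whether the mutant cells were 1 clone or how the change was made. They were seeded in hormone-deprived, antibiotic-free medium, and a control siRNA was given at 25 nM. Total RNA was sequenced, in 1 group of 2 replicate libraries with 41370662 and 37198274 reads on genes. No other condition was analysed here, so the text describes levels in this state and the spread between the libraries. The labels do not say that the replicates were separate cultures, and the spread may be technical.

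Entry into mitosis is driven by CDK1 bound to B-type cyclins, which phosphorylates proteins that condense chromosomes, build the spindle and attach kinetochores. The spindle checkpoint then holds the anaphase-promoting complex back until every chromosome is attached, after which securin and cyclin B are destroyed, sister chromatids part and the cell divides. Most of these genes are transcribed late in the cell cycle, through promoter elements bound by the MuvB complex with B-MYB and FOXM1, and in quiescent cells the related DREAM complex represses them. Their summed level is widely used as a measure of proliferation in breast cancer. In RNA of bulk cells, a smaller share of dividing cells and less RNA per cell cannot be told apart.

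A gene was called detected at 1 CPM (reads of a gene scaled to the reads on all genes, not divided by length) or more in both libraries. By this rule 24.5% of all genes and 60.9% of the 19250 nuclear protein-coding genes were detected, against 40 of 40 mitosis genes. All 40 were also above 10 CPM. As means of the libraries, all 40 lay above 9.24 TPM, the median of the detected nuclear protein-coding genes, and 26 of them were in the top 10% of nuclear protein-coding genes, with percentiles from 70.6 to 99.2. Their reads made up 0.836% of replicate 1 and 0.749% of replicate 2. Read counts of single members ran from 930 to 50000, so that the exact Poisson 95% counting interval was between 0.878% and 6.48% of the value on either side. Intervals and floors cover counting error only, and they are too narrow if both mates of a read pair were counted.

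**Figure D1:**
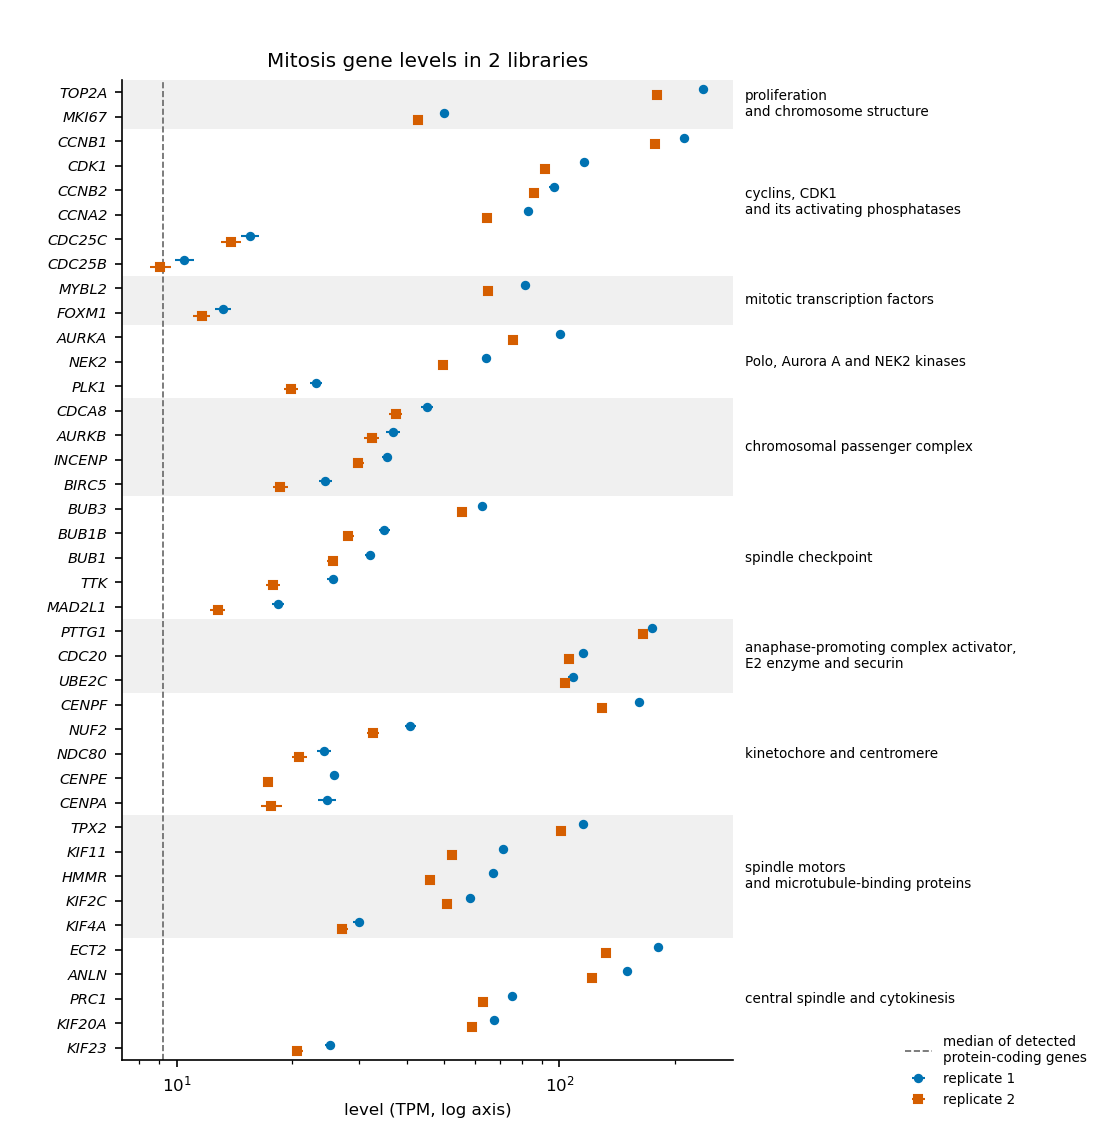
Level of each of the 40 mitosis genes in TPM (log axis), grouped by role; circles are replicate 1, squares replicate 2, horizontal bars the exact Poisson 95% counting interval, and the dashed line the median of detected protein-coding genes (9.24 TPM). The genes lie between 9.78 TPM (CDC25B) and 209 TPM (TOP2A) as means of the libraries, and replicate 1 is the higher of the pair for all 40 on this scale.

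Since these genes are known to share promoter elements, their promoter sequences are shown first. RefSeq windows of 300 bases (250 before and 50 after an annotated transcription start, build GRCh38.p14) were at hand for 33 of the 40 genes, in 43 windows. AURKA, BIRC5, BUB3, FOXM1, TPX2, TTK and UBE2C had none. The 3 elements searched, on both strands, were the cell cycle genes homology region (CHR; TTTGAA or TTTAAA), the CCAAT box bound by NF-Y (CCAAT, read as ATTGG on the other strand) and GGCGG, a core of the neighbouring cell cycle-dependent element. The stretches that follow are the 100 bases before an annotated start, 5′ to 3′ on the gene's strand, with CHR and CCAAT letters in capitals. CCNB1, CCNB2, PLK1, CDC25C, PTTG1, KIF20A, PRC1, CDC20 and MKI67 are shown because they hold both elements in this stretch. CCNA2 is shown because its window holds neither TTTGAA nor TTTAAA. All were picked after the matches were seen. CDC25C has 4 windows and PTTG1 has 2, and for each only the stretch with both elements is printed. The other CDC25C stretches hold a CCAAT match or neither element, and the other PTTG1 stretch holds a CHR match only. No stretch is printed for AURKB, BUB1, MYBL2 and NEK2, whose windows also hold neither TTTGAA nor TTTAAA. Those of AURKB hold no CCAAT match in these 100 bases either. MKI67 has a CHR and a CCAAT match that overlap.
CCNB1 (cyclin B1; chr5:69167050-69167149, plus strand): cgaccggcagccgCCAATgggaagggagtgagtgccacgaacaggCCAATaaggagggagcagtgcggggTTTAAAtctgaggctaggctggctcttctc
CCNB2 (cyclin B2; chr15:59105046-59105145, plus strand): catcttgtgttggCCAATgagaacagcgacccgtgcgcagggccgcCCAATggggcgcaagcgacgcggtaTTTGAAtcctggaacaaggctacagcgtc
PLK1 (Polo-like kinase 1; chr16:23678789-23678888, plus strand): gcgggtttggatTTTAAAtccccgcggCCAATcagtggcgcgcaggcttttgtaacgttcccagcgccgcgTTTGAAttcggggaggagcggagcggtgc
CDC25C (the phosphatase that activates CDK1; chr5:138331805-138331904, minus strand): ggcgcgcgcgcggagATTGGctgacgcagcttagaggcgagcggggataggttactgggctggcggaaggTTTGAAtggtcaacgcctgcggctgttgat
PTTG1 (securin; chr5:160421755-160421854, plus strand): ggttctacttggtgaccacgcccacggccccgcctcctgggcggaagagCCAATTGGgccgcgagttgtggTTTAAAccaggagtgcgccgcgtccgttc
KIF20A (a kinesin of the central spindle; chr5:138179012-138179111, plus strand): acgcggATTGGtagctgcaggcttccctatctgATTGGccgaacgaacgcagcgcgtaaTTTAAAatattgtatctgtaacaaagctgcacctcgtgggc
PRC1 (the antiparallel microtubule bundler; chr15:90994536-90994635, minus strand): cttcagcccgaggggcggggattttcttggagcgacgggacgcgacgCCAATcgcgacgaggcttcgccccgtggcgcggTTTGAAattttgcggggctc
CDC20 (the activator of the anaphase-promoting complex; chr1:43358881-43358980, plus strand): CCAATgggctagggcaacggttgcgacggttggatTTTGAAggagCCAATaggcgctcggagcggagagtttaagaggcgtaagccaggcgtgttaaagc
MKI67 (the Ki-67 antigen; chr10:128126424-128126523, minus strand): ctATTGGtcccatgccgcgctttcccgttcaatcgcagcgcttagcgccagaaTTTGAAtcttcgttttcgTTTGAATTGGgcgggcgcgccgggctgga
CCNA2 (cyclin A2; chr4:121823884-121823983, minus strand): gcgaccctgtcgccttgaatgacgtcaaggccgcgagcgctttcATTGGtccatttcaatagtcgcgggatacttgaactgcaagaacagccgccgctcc

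CHR letters stood in a window of 28 of the 33 genes (84.8%), against 27.9% of the 27305 genes with a window (35116 windows in all). The TTTGAA form was found for 22 genes (66.7%, against 18.2% of all genes) and the TTTAAA form for 12 (36.4%, against 14.5%). CCAAT letters were found for 26 (78.8%, against 39.7%), and both elements for 21 (63.6%, against 11.2%). GGCGG was in a window of all 33, but also of 61.5% of all genes. The CHR letters of the genes lay close to the start: for 20 of the 33 (60.6%), a match began in the last 60 bases before it, against 6.85% of all genes. That distance was chosen after the positions were seen. In CCNB1, CCNB2, PLK1, CDC25C and PTTG1 the nearest match in the stretch shown began 29 or 30 bases upstream of the start.

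Neither TTTGAA nor TTTAAA was found in the windows of AURKB, BUB1, CCNA2, MYBL2 and NEK2. Strings that differ from these letters, such as cttgaa in the CCNA2 stretch, were not searched. The search therefore cannot show that these 5 genes lack a CHR. Levels of the genes with and without the letters overlapped. The 28 genes with CHR letters had a median of 50.4 TPM, and the 5 without had 57.1 TPM, with CCNA2 at 73.6 TPM and BUB1 at 28.8 TPM among them. The shares and medians describe sequences and levels, and no binding was measured here.

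**Figure D2:**
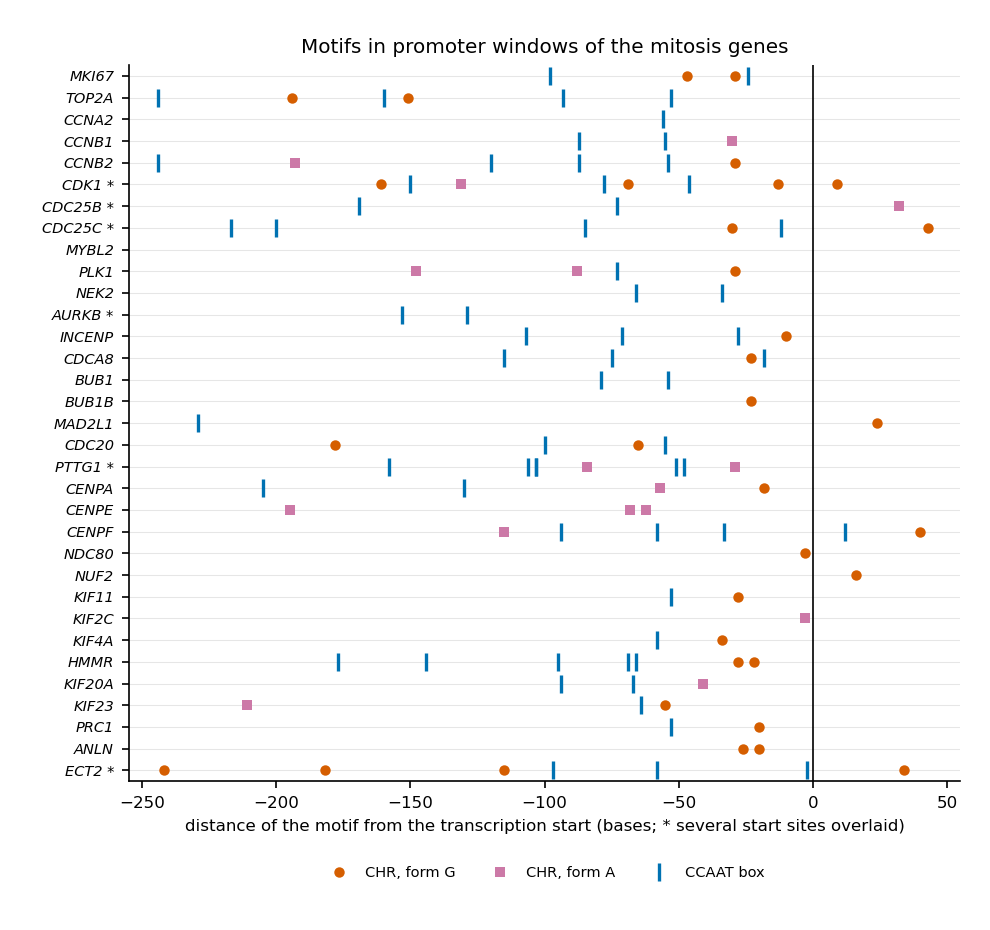
Positions of CHR and CCAAT matches in the promoter windows of the 33 mitosis genes with a RefSeq window. The axis is the distance from the annotated transcription start in bases (vertical line at 0). Rows are genes, and an asterisk marks a gene whose start sites are overlaid. CHR matches begin in the last 60 bases before the start in 20 of the 33 genes.

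The most abundant transcript of the set was TOP2A, DNA topoisomerase II alpha, which untangles sister chromatids (ENSG00000131747.10; hg19 chromosome 17, 38544768 to 38574202, minus strand). It stood at 237 TPM in replicate 1 and 179.7 TPM in replicate 2. Its paralog TOP2B, which is also made in resting cells, was lower by 3.26-fold on the mean of the libraries. MKI67, the Ki-67 antigen that coats mitotic chromosomes and serves as the standard proliferation marker in pathology, was at 50.03 and 42.65 TPM. With 12807 exon bases it was the longest member, and its level per length was near the middle of the order although it drew 16980 and 14483 reads.

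Among the cyclins and their kinase, CCNB1 was highest at 212 and 178 TPM (ENSG00000134057.10; hg19 chromosome 5, 68462837 to 68474072, plus strand). CDK1, the catalytic partner, was at 116 and 91.8 TPM (ENSG00000170312.11; hg19 chromosome 10, 62538089 to 62554610, plus strand). CCNB2, the second B-type cyclin, was at 96.7 and 85.8 TPM, and CCNA2, which acts from S phase into early mitosis, at 82.7 and 64.5 TPM. Cyclin B1 mRNA thus exceeded that of cyclin B2 by 2.13-fold, of cyclin A2 by 2.66-fold and of CDK1 by 1.88-fold, each with the same order in both libraries. In reads not divided by length its excess over CDK1 was 1.23-fold. These and the ratios that follow are called where the exact 95% counting interval of the ratio lies on the same side of 1 in both libraries and the mean log2 ratio exceeds the 95th percentile of differences between the replicate libraries at that read level.

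The phosphatases that switch CDK1 on were at the low end. CDC25C was at 15.5 TPM in replicate 1 and 13.9 TPM in replicate 2, and CDC25B, which acts earlier, at 10.5 and 9.07 TPM. CDC25C was 1.51-fold above CDC25B per length, but in reads not divided by length the ratio kept its sign and was not called (log2 ratio of CDC25B to CDC25C -0.14, against -0.59 per length). CDC25A, the family member that also acts at the start of S phase, was higher than CDC25B by 1.88-fold.

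Between the transcription factors of the late cell cycle, MYBL2 was 5.86-fold above FOXM1 per length and 3.29-fold in reads. MYBL2 encodes B-MYB, which joins the MuvB complex, and was at 81.3 and 65.2 TPM. FOXM1, which follows it on the same promoters, was at 13.3 and 11.6 TPM, next to lowest of the 40 (ENSG00000111206.8; hg19 chromosome 12, 2966847 to 2986206, minus strand). Of its exon bases 16.3% were shared with another row, ITFG2, and reads there could have been left uncounted. MYB, the founding member of the family and a known estrogen-responsive gene in breast cancer cells, was at 15.2 and 15.5 TPM, 4.74-fold below MYBL2 (2.32-fold in reads). MYBL1 was 2.40-fold below MYBL2 per length, yet in reads not divided by length the order was reversed (log2 ratio -0.17) and the ratio was not called.

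The mitotic kinases differed among themselves. AURKA, which acts at the centrosomes and spindle poles, was at 100.2 and 75.8 TPM (ENSG00000087586.13; hg19 chromosome 20, 54944445 to 54967393, minus strand). NEK2, a kinase of centrosome separation, was at 64.4 and 49.7 TPM. PLK1, the Polo-like kinase needed for mitotic entry and spindle assembly, was at only 23.1 and 19.9 TPM (ENSG00000166851.10; hg19 chromosome 16, 23688977 to 23701688, plus strand). Its paralog PLK2, a stress-responsive kinase outside mitosis, was 4.33-fold higher, at 92.6 and 93.3 TPM. PLK4, which controls centriole duplication, was 1.67-fold lower than PLK1, and PLK3 had 47 and 55 reads, 38.9-fold lower per length.

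AURKB, the catalytic subunit of the chromosomal passenger complex that corrects faulty attachments, was 2.52-fold below AURKA, at 36.8 and 32.4 TPM (ENSG00000178999.8; hg19 chromosome 17, 8108056 to 8113918, minus strand). The scaffold INCENP was at 35.5 and 29.8 TPM and differed from AURKB by a log2 ratio of -0.09, which was not called. In reads not divided by length the order turned, and INCENP was 1.89-fold above AURKB, which was called. CDCA8, which encodes borealin, was at 45.2 and 37.4 TPM. BIRC5, which encodes survivin, was at 24.5 and 18.7 TPM, 1.92-fold below CDCA8. That ratio falls to a log2 of -0.32 without the length and is then not called, and 26.4% of the exon bases of BIRC5 overlap a row on the opposite strand. The third Aurora kinase, AURKC, which is best known from germ cells, drew 6 reads in replicate 1 and 0 in replicate 2, against 7775 and 5886 reads of AURKA. With a floor of 3 reads in place of 0, AURKA was 1167-fold higher in replicate 2, with a lower 95% counting limit of 948-fold. In replicate 1 AURKA was 771-fold higher with an interval from 354 to 2100.

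Spindle checkpoint transcripts were among the lower ones. BUB3, a scaffold that reads phosphorylated kinetochores, led at 62.9 and 55.6 TPM. BUB1B, which encodes BUBR1, was at 34.9 and 28.1 TPM, and BUB1, the kinase that brings it in, at 32.0 and 25.6 TPM; BUB1 and BUB1B differed by a log2 ratio of -0.13 per length and 0.30 in reads, neither of which was called. Of the exon bases of BUB1B 10.2% are shared with other rows. BUB3 exceeded BUB1B by 1.89-fold. TTK, the MPS1 kinase that starts checkpoint signalling, was at 25.5 and 17.9 TPM. MAD2L1, which encodes the MAD2 protein that captures CDC20, was lowest of the group at 18.4 and 12.8 TPM.

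CDC20, the target of that inhibition and activator of the anaphase-promoting complex, was 7.19-fold above MAD2L1 per length and 2.55-fold in reads, at 115 TPM in replicate 1 and 106 TPM in replicate 2. FZR1, the activator that takes over at mitotic exit, was lower than CDC20 by 9.43-fold per length and 3.31-fold in reads. PTTG1, securin, was at 174 and 165 TPM, 1.54-fold above CDC20. UBE2C, the ubiquitin-conjugating enzyme that starts chains for the complex, was at 108 and 103 TPM, and exceeded its chain-extending partner UBE2S by 1.48-fold. Per length, the 3 genes that end mitosis were thus all in the upper part of the order, at ranks 3, 7 and 9 of 40. Their exons are short, with 2010 bases for PTTG1, 2038 for CDC20 and 1641 for UBE2C. In reads not divided by length they had means of 230, 152 and 117 CPM. MKI67, at rank 22 per length, had 400 CPM. Near-identical copies exist for each of the 3 genes: CDC20P1 drew 239 and 204 reads, UBE2CP5 71 and 61, and PTTG3P 32 and 42, so reads could be split or dropped between copies. PTTG2 drew 1 and 0 reads, but 87.7% of its exon bases are shared with another row, and its level is uncertain.

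At the kinetochore, CENPF stood apart, at 162 and 129 TPM and with 50000 reads in replicate 1, the most of any member. CENPF encodes a large protein of the outer kinetochore. CENPE, the kinesin that moves chromosomes to the spindle equator, was 6.82-fold lower, at 25.8 and 17.4 TPM. In the NDC80 complex, which holds the microtubule end, NUF2 was at 40.8 and 32.6 TPM and NDC80 at 24.2 and 20.9 TPM, a ratio of 1.62-fold. CENPA, the histone variant that marks the centromere, was at 24.7 and 17.7 TPM with 1297 and 930 reads, among the shallowest counts.

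Of the spindle proteins, TPX2, which activates Aurora A on microtubules, was highest at 115 and 101 TPM. Its 1.24-fold excess over AURKA was not called per length and was called in reads (log2 ratio 0.61). KIF11, the kinesin that pushes the poles apart, was at 71.1 and 52.3 TPM, and HMMR, a microtubule-binding protein of the spindle poles, at 67.1 and 45.9 TPM. KIF2C, a kinesin that takes microtubule ends apart, was at 58.4 and 50.7 TPM, 2.57-fold above its paralog KIF2A. KIF4A, a chromosome-bound kinesin, was at 29.9 and 27.1 TPM. KIF4B, a near-identical copy, drew 95 and 73 reads, 40.1-fold less per length, and reads of this pair cannot be told apart fully.

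Among the genes of the central spindle and cytokinesis, ECT2, the exchange factor that switches on RhoA at the division plane, was at 181 and 133 TPM. ANLN, which encodes the anillin scaffold of the contractile ring, was at 149.9 and 122 TPM. PRC1 was at 75.4 and 63.2 TPM, 2.43-fold above its motor partner KIF4A. KIF20A was at 67.6 and 59.2 TPM, 2.06-fold above KIF20B per length, a ratio not called in reads (log2 0.19). KIF23, the kinesin of the centralspindlin complex, was at 25.1 and 20.7 TPM.

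By role, the median level was 110.5 ± 6.54 TPM for the 3 genes of anaphase onset and 82.4 ± 10.2 TPM for the 6 cyclin and CDK1 genes. It was 69.3 ± 8.59 TPM for the 5 of cytokinesis and 58.9 ± 11.6 TPM for the 5 spindle proteins. The 5 kinetochore genes (23.4 ± 3.48 TPM), the 5 checkpoint genes (28.8 ± 4.53 TPM) and the 4 passenger genes (33.6 ± 3.60 TPM) were lower. The spread within a role varied. It ran from 21.2 TPM for CENPA to 145 TPM for CENPF within the kinetochore group. The passenger genes ran only from 21.6 to 41.3 TPM, and the genes of anaphase onset from 106 to 170 TPM. In the order of all 40 genes, 15 of 39 neighbouring pairs kept their order with non-overlapping counting intervals in both libraries, and 24 did not. By this rule TOP2A and CCNB1 at the top were not separated, whereas CCNB1 lay above PTTG1, and ECT2 above CENPF. At the bottom, CDC25C was separated from FOXM1, and FOXM1 from CDC25B. The rule covers counting error only and leaves out the spread between the replicate libraries, which a called ratio had to exceed. In replicate 2, ECT2 and CENPF were as close as 133 and 129 TPM. Whether these neighbours differ beyond the replicate spread was not tested.

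Ratios were taken for 35 pairs: 16 between members, 18 between a member and a paralog, and UBE2C with UBE2S. Of these, 31 were called, 13 of the 16 between members and 17 of the 18 with paralogs. In 15 of the 17 called paralog pairs the member was the higher. The exceptions were PLK1, below PLK2, and CDC25B, below CDC25A. This count does not set mitosis genes against other genes. The paralogs PLK4, CDC25A, KIF2A, KIF20B and FZR1 are among the further mitosis genes described below. Those with almost no reads, CCNA1, AURKC and PTTG2, are also in the count. The pairs of MYBL2 with MYBL1 and of KIF20A with KIF20B were not called in reads. Other paralog pairs were not taken for comparison. CCNA1, the germline cyclin A, had 0 reads in both libraries. With the floor of 3 reads in place of 0, CCNA2 was 1681-fold and 1313-fold higher. The lower 95% counting limits were 1366-fold and 1068-fold. CCNB1 exceeded CCNB3 by 122-fold per length (57.9-fold in reads), and CDK1 exceeded CDK2, which pairs with cyclins E and A, by 2.76-fold. Of the exon bases of CDK2 16.8% are shared with rows on the opposite strand, and reads there could have been left uncounted. MAD2L1 and MAD2L2 were not called per length over both libraries (log2 ratio -0.36). Without replicate 1 their ratio was -0.59 and was called, and in reads not divided by length it turned to 0.43 and was called. In reads not divided by length 30 pairs were called and the order turned in 4, those of INCENP with AURKB, BUB1 with BUB1B, MYBL2 with MYBL1 and MAD2L1 with MAD2L2. The spread used for the calls is that of the same gene between libraries and holds no error from the annotated exon length.

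**Figure D3:**
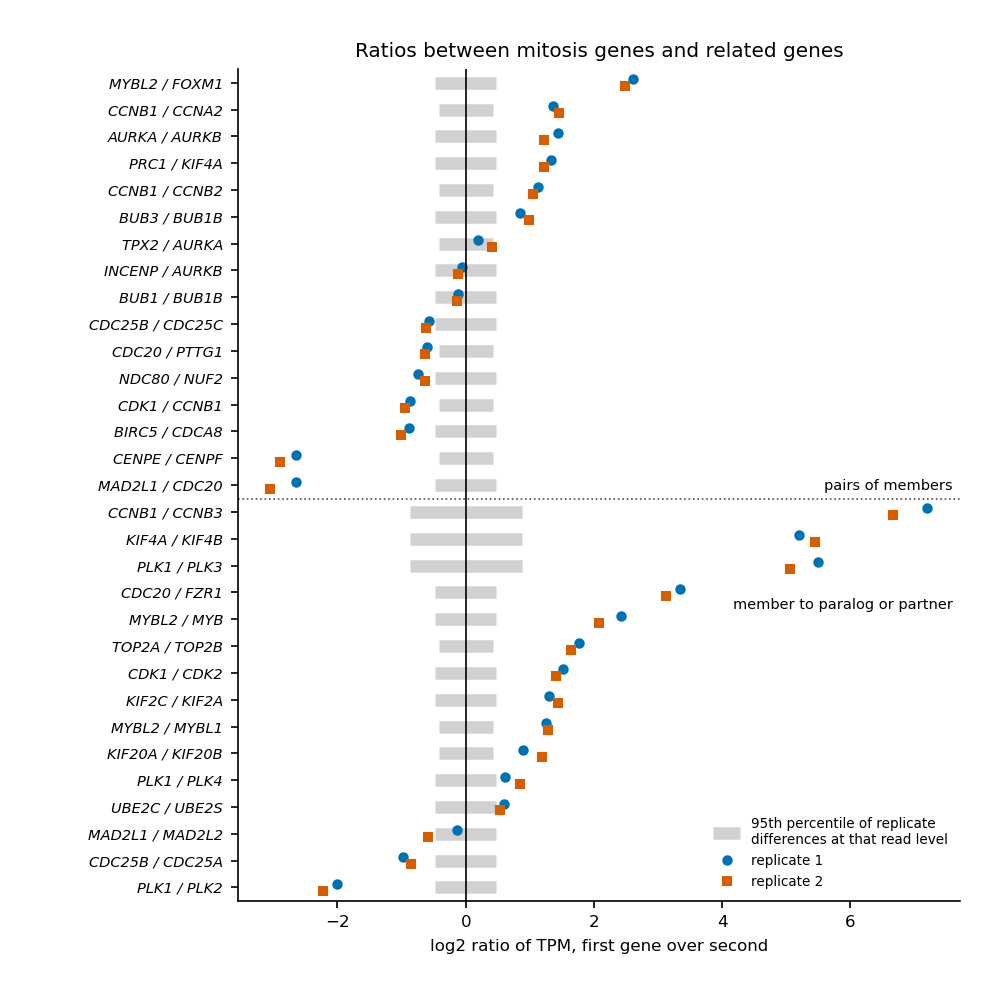
Log2 ratio of TPM, first gene over second, for pairs of mitosis genes and for mitosis genes with their paralogs; circles are replicate 1, squares replicate 2, and the grey band is the 95th percentile of differences between the replicate libraries at the read level of the lower gene. The 4 pairs with CCNA1, AURKC or PTTG2, which had almost no reads, are not drawn; of the rest, TPX2 to AURKA, INCENP to AURKB, BUB1 to BUB1B and MAD2L1 to MAD2L2 were not called.

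Levels of the 40 genes kept nearly the same order in both libraries (Pearson r 0.994 and Spearman rho 0.986 of log2 TPM across 40 genes, which share their 2 libraries and are not replicates). All 40 were higher in replicate 1 in TPM. That scale itself moved: nuclear protein-coding genes held 298304 TPM in replicate 1 and 264252 TPM in replicate 2, and the median of all detected genes fell by 0.18 on the log2 scale. Differences between the libraries are therefore given at TMM effective library sizes, where the median over all detected genes was 0.00. On that scale the median of the 40 was -0.10 (replicate 2 minus replicate 1, log2), with 34 genes below 0 and 6 above.

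The 95% counting interval lay below 0 for 25 of the 40, above 0 for 3 and across 0 for 12. Among the 14176 detected genes, 23.7% lay below 0 and 23.1% above. The 3 higher in replicate 2 were the members grouped here under anaphase onset: PTTG1 (0.10, interval 0.06 to 0.14), UBE2C (0.11, interval 0.05 to 0.17) and CDC20 (0.06, interval 0.01 to 0.11). The call of CDC20 ended at plain library totals, where its difference was 0.03. The lowest were CENPE (-0.39, interval -0.45 to -0.34), HMMR (-0.37), MAD2L1 and TTK (both -0.34) and CENPA (-0.30). CCNB2, BUB3, TPX2, KIF20A, KIF2C, KIF4A, AURKB, PLK1, NDC80, CDC25B, CDC25C and FOXM1 had intervals that held 0. Among the 76 further mitosis genes described below, 10 were higher in replicate 2 and 45 lower. ESPL1, which encodes separase, was among the lower ones (-0.12, interval -0.18 to -0.05), so the 3 higher members do not stand for all genes of anaphase onset. With 1 group, such differences measure the spread between replicates and no condition.

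Read depth and exon length moved with this count. The detected protein-coding genes were cut into 3 classes of equal size. In the class of highest mean CPM, which held 35 of the 40, 38.6% of all genes were lower in replicate 2, and 24 of the 35 mitosis genes were; the medians were -0.02 and -0.12. In the middle class, 25.9% of genes and 1 of 5 members were lower. By exon length, 18.6%, 26.8% and 33.2% of genes were lower in the short, middle and long class, and 8 of 18, 12 of 17 and 5 of 5 members. Across the 40 genes the difference and log2 exon length had a Pearson r of -0.37 (Spearman rho -0.39), and r of -0.11 over all 11718 detected protein-coding genes. The part of depth and length in the difference between the libraries was not tested. The level of the 40 and their exon length were only weakly related (r -0.15 and rho -0.18 of log2 values).

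**Figure D4:**
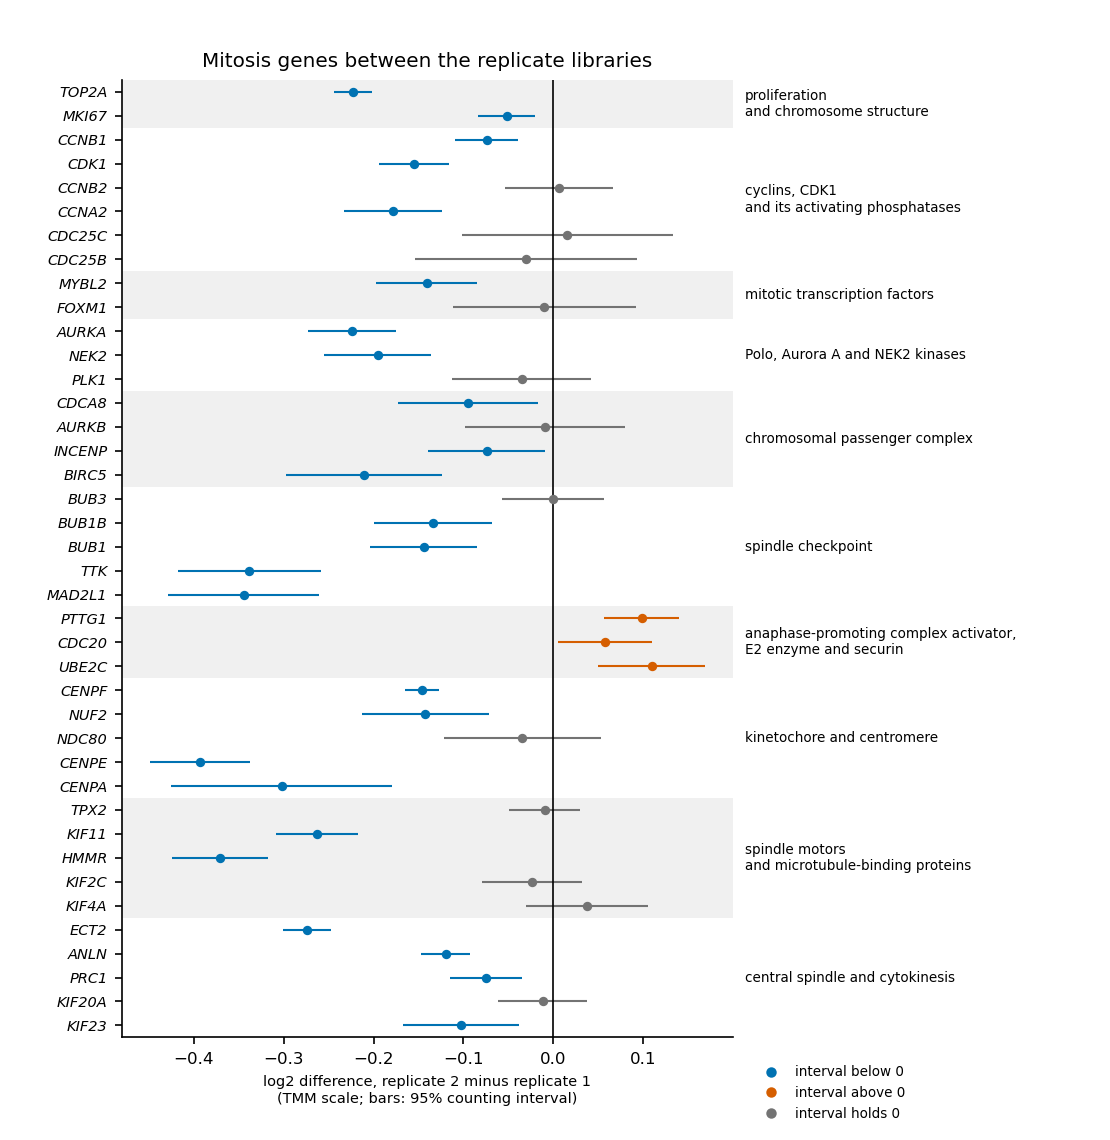
Log2 difference of each mitosis gene between the replicate libraries (replicate 2 minus replicate 1, at TMM effective library sizes), with the exact 95% counting interval as a bar and colour for the side of 0 it lies on. Of the 40 genes, 25 have intervals below 0, 12 hold 0, and PTTG1, UBE2C and CDC20 lie above 0.

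A further 76 genes of the same processes, listed by function, were less abundant: 75 were detected and their median was 21.3 ± 2.62 TPM, against 54.2 ± 9.08 TPM for the 40. ZWINT, a kinetochore protein, was highest at 132 ± 20.1 TPM, followed by CKAP5, a microtubule polymerase, at 128 ± 12.1 TPM and RACGAP1, the partner of KIF23 in centralspindlin, at 121 ± 17.3 TPM. The difference between the libraries was similar in direction, with 45 lower, 10 higher and a median of -0.12. KIFC1, a minus-end kinesin, was the gene not detected, with 7 reads in replicate 1 and 120 in replicate 2. Of 50 protein-coding genes within 1 Mb of it, 30 had no read in replicate 1 and 8 were detected, which was looked up after its count was seen; the level of KIFC1 is therefore uncertain.

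The 11 subunits of MuvB and DREAM other than MYBL2, which bind the promoters of these genes, were all detected at a median of 10.7 ± 1.31 TPM, led by TFDP1 at 36.9 ± 7.33 TPM, E2F4 at 27.7 ± 2.52 TPM and RBBP4 at 21.0 ± 3.43 TPM. MYBL2 at 73.2 ± 11.4 TPM lay above each of them. The 30 genes of DNA replication, expressed earlier in the cell cycle, were all detected at a median of 35.9 ± 6.26 TPM. PCNA, the sliding clamp of DNA polymerase, was at 262 ± 40.1 TPM, above every one of the 40 mitosis genes, with TK1 at 142 ± 12.6 TPM and FEN1 at 126 ± 10.9 TPM. Of these 30 genes 16 were lower in replicate 2 and 4 higher, with a median difference of -0.08.

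Markers of the labelled cell type were present. All 10 luminal epithelial markers were detected, with summed levels of 4389 and 4268 TPM, led by KRT19 at 1385 ± 19.6 TPM, AGR2 at 1075 ± 20.3 TPM and XBP1 at 723 ± 37.8 TPM. Of 6 basal and myoepithelial markers ACTA2 and MYLK were detected, with a summed level of 3.47 and 2.54 TPM. Of 7 fibroblast markers COL1A1 alone was detected (sum 1.28 and 1.30 TPM, with DCN and PDGFRB at 0 reads), and of 5 endothelial markers ESAM alone (sum 0.649 and 0.895 TPM, with CDH5, KDR and TEK at 0 reads). None of 6 immune markers was detected (sum 0.144 and 0.502 TPM, with CD3E, CD68 and MS4A1 at 0 reads).

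**Figure D5:**
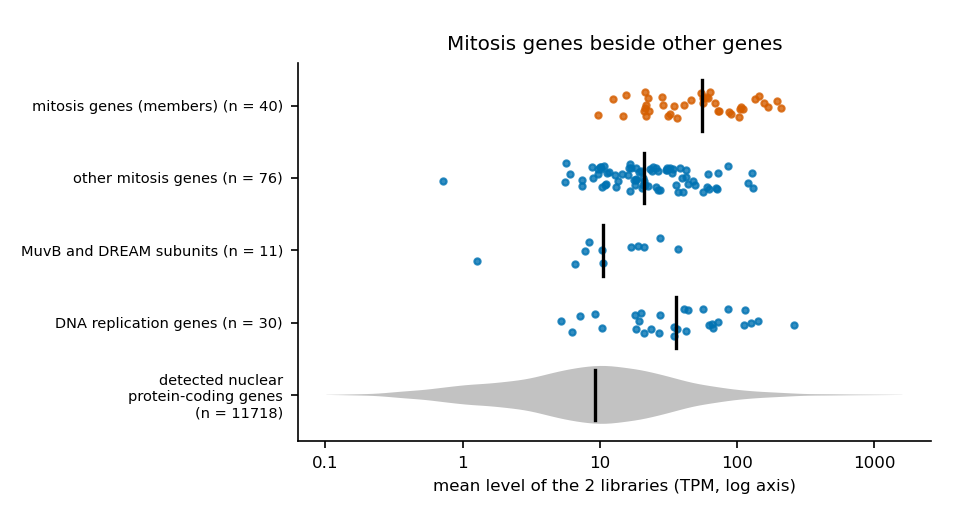
Mean level of single genes in TPM (log axis) for the 40 mitosis genes, the further mitosis genes, the MuvB and DREAM subunits, the DNA replication genes and the detected protein-coding genes (grey density); vertical bars are medians of the plotted means. The 40 mitosis genes lie between 9.78 and 209 TPM, all above the median of detected protein-coding genes (9.24 TPM).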

How the data were processed

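Per the labels' protocols, total RNA was depleted of ribosomal RNA and made into stranded libraries with synthetic spike-in RNA added. Exons of GENCODE release 19 were counted by gene with featureCounts 2.0.2, per the file headers; the deposited counts are whole numbers with no normalization, and gene length is the summed exon length. The recorded call held no strand, paired-end, multimapping or overlap option, so antisense and overlapping genes cannot be told apart. Per the submitters' processing notes HISAT2 and hg19 (GRCh37) were used, and the version of HISAT2 was not given in the sources used here. Column names give the cell line, the mutated residue and the replicate but not the siRNA, and libraries were assigned on those parts. No step used the 8 further columns of per-sample values, for which no label was at hand.

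From the counts, TPM and CPM were computed over all 57820 genes, of which 51996 identifiers matched a symbol; gene types came from GENCODE release 29. TMM factors (1.01 and 0.992) came from edgeR 4.0.16 and size factors for an alternative from DESeq2 1.42.0; other steps used Python 3.11.15 with scipy 1.17.1. With 1 group there was no test between conditions. Counting intervals are exact Poisson, or exact conditional binomial for ratios, at 95%. They were run on simulated counts that held counting error only. Those counts lack the further spread between these libraries, so the simulation cannot show how well the intervals cover it. The chi-square statistic between the libraries was 23.5 per gene, so they were kept as 2 replicates. Named genes are all 40 members, both genes of each pair, and in each other list the 3 highest and those not detected. ESPL1 was added after its value was seen. The members, lists and pairs were chosen with earlier results of these data known. Pseudogene copies, the depth and length classes, correlations, the neighbourhood of KIFC1, the 60-base distance and the stretches printed were chosen after seeing values. Alternatives were another scale, another detection minimum, reads without length, other library sizes and each library alone. Promoter sequences are from RefSeq (GRCh38.p14), whose coordinates are separate from the hg19 coordinates of the counts.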

Additional observations from a re-analysis of the deposited data

How the results depend on the processing

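Detection of the 40 mitosis genes was 40 of 40 at a minimum of 10 CPM in both libraries. The same count at 1 read and with either library left out follows from that and is no further check. Their median level was 192 ± 15.8 TPM when TPM was scaled over nuclear protein-coding genes only, instead of 54.2 ± 9.08 TPM, because the denominator is smaller; leaving out 1 library gave 47.8 to 60.6 TPM, and the 37 genes with under 10% of exon bases shared gave 57.6 ± 9.66 TPM. Called pairs numbered 31 to 32 with 1 library left out and 30 in reads without length. The ratio of MYBL2 to MYBL1 reversed in reads (log2 -0.17) and was not called there. A further 3 ratios lost their call in reads and 3 gained one. Genes lower in replicate 2 numbered 25 under every library size tried, with medians from -0.12 to -0.10. The detection minima could not change this count, because all 40 genes passed each of them. No paired analysis was possible because there is 1 group. Depth limits the shallowest members to 6.48% of the value on either side, by counting error alone.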
